A study of Mus musculus with 2 samples.

Results

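The 6 genes described here encode enzymes and secreted proteins that neutrophils make late in their maturation: the matrix metalloproteinases Mmp8, Mmp9 and Mmp25, the peptidylarginine deiminase Padi4, and the resistin-like proteins Retnlg and Retnla. They were chosen by symbol, as 6 of the 32285 genes in each of 2 count matrices of a single-cell RNA sequencing study in mice. Both libraries held PLZF/RARA transformed progenitors from leukemic bone marrow, sorted as late promyelocytes (positive for Cd45.2, c-Kit, Gr1 and FcγR, negative for Cd34). PLZF/RARA is the oncogenic fusion of the transcriptional repressor PLZF with the retinoic acid receptor alpha, and both libraries came from cells that express it. The mice of the first library, called vehicle, were injected intraperitoneally with corn oil containing 10% DMSO, and those of the second received 0.8 to 1 mg of retinoic acid by the same route. Treatment ran for 7 days in a cohort of 3 to 5 mice, and the labels do not say how many mice went into each library or give the strain or age. With 1 library per group there was no replicate and no test, so every interval below is a 95% interval for counting error only. In transformed cells taken through a sort for immature surface markers, the levels describe the cells that passed that gate.

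Neutrophils fill their granules in sequence: primary granules with serine proteases and myeloperoxidase at the promyelocyte stage, secondary granules with Camp and other antimicrobial proteins at the myelocyte stage, and tertiary or gelatinase granules with Mmp9 after that. S100a8, a calcium-binding protein of the cytosol, rises along the same course, which makes Camp and S100a8 useful as reference genes within a cell. Mmp8 is the neutrophil collagenase of the secondary granules, Mmp25 a membrane-anchored metalloproteinase, and Padi4 the enzyme that citrullinates histones when neutrophils release extracellular traps. Retnlg is a resistin-like protein of mouse neutrophils, while its relative Retnla is best known from alternatively activated macrophages.

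The genes lie on 5 chromosomes of GRCm38: Mmp8 on chromosome 9 (7558456 to 7568485, plus strand), Mmp9 on chromosome 2 (164940780 to 164955850, plus strand), Mmp25 on chromosome 17 (23628311 to 23645277, minus strand) and Padi4 on chromosome 4 (140745865 to 140774236, minus strand). Retnla (48842551 to 48844461) and Retnlg (48872621 to 48874496) are neighbours on the plus strand of chromosome 16. Their transcripts of 599 and 593 bases were 82.5% identical and shared an exact run of 49 bases, so reads of these paralogs could be split between them by the counting. The last 100 bases, near which 3' libraries are read, were 70.3% identical. Mmp25 overlaps the processed pseudogenes AC154766.2 and AC154766.3 on the opposite strand, neither of which has a row in the matrices. The use of strand in the counting is not given in the sources used here.

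The 250 bases before the RefSeq transcription start are shown for Retnlg, Retnla and Padi4. These were chosen since the neighbours Retnlg and Retnla differed in how many cells held them and Padi4 had the widest spread over cells. The gene bounds above are from GENCODE and differ from these starts, so the last bases shown for Retnla and Padi4 lie inside those bounds. The sequences are from RefSeq on GRCm38.p6, printed 5′ to 3′ on the strand of the gene, and capitals mark matches to the C/EBP letters TTNNGNAA or their reverse complement TTNCNNAA. Retnlg is shown from chr16:48872358-48872607 (plus strand), Retnla from chr16:48842359-48842608 (plus strand) and Padi4 from chr4:140774204-140774453 (minus strand).
Retnlg: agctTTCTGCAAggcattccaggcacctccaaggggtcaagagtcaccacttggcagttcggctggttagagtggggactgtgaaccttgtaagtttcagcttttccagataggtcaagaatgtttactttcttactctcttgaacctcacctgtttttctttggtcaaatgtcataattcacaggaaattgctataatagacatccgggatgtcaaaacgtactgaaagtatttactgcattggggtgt
Retnla: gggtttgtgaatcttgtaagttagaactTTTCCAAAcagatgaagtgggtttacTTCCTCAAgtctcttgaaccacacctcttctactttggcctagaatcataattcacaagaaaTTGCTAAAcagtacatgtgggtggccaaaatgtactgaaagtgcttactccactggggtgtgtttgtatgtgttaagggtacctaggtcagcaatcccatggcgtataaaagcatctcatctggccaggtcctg
Padi4: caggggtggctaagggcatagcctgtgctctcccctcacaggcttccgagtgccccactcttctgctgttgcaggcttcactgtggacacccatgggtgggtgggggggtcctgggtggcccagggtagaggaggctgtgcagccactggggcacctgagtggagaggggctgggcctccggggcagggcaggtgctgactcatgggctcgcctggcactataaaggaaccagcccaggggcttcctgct

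Of the 6 genes, 5 were in the RefSeq promoter table, and Mmp9 was not. C/EBP factors drive many granule genes, and in windows of 300 bases (250 before to 50 after the start) these letters were present in 40.7% of 32851 promoters. Retnla held 3 matches, at -222, -196 and -134 from the start, Mmp8 held 2, at -151 and -19, and Retnlg held 1, at -246. Padi4 and Mmp25 held none, which says only that these letters were not in the window. The PU.1 core GAGGAA or TTCCTC, present in 28.3% of promoters, was found once each in Mmp8, Mmp25 and Retnla, where the match at -196 overlapped a C/EBP match. The DR5 repeat of retinoic acid receptors (AGGTCA, 5 bases, AGGTCA), searched on both strands, was in 3 of the 32851 windows and in none of the 5. The Retnla window from -250 to -24 aligned with the Retnlg window from -176 to 50 over 228 columns, of which 178 were identical (78.1%) and 3 held a gap. The sequence that carries the Retnlg match lies outside that alignment. A match is a run of letters and not a measured binding site.

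The filter kept 5476 vehicle cells with a median of 16749.5 unique molecular identifiers (UMIs, counts of captured mRNA molecules) and 7140 retinoic acid cells with a median of 14604. The totals were 99107718 and 110088247 UMIs, so a gene with 0 counts could have had up to 0.0303 and 0.0273 CPM (counts scaled to a library total of 1e+06). Both libraries carried Ctsg, a primary granule protease, at 6444 CPM under vehicle and 5979 under retinoic acid. Mpo, the myeloperoxidase of promyelocytes, was nearly absent after retinoic acid (311 against 0.50 CPM), and Elane, the neutrophil elastase, was low under vehicle (62.8 against 7663 CPM). The 2 libraries shared 11 barcodes, all of them kept, and leaving these out moved the ratio of no member by more than 0.0020 on the log2 scale.

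All 6 genes had higher summed CPM in the retinoic acid library. All 6 also had at least 10 counts in the vehicle library alone, so none depended on the retinoic acid library to pass the minimum of 10 counts. The 6 were at least 2-fold higher, against 5.72% of the 14561 genes with at least 10 counts over both libraries (median log2 ratio over those genes -0.08). Of the 6, Padi4 and Retnlg reached 20 CPM in either library, where 3.03% of 5548 genes were at least 2-fold higher, 5.05% at least 2-fold lower and 8.07% either. Over the 14561 genes, 15.0% were at least 2-fold lower, or 20.8% in either direction. Log2 ratios below are of retinoic acid over vehicle with 0.5 counts added to each sum.

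Retnlg gave 325 UMIs under vehicle and 25774 after retinoic acid, or 3.28 CPM (interval 2.93 to 3.66) against 234 (231 to 237). The log2 ratio was 6.16 (6.0 to 6.32), a fold of 71.3. Its neighbour Retnla gave 58 and 362 UMIs, or 0.585 CPM (0.444 to 0.757) against 3.29 (2.96 to 3.65), and a log2 ratio of 2.48 (2.09 to 2.92). The intervals of the 2 ratios did not overlap, and that of Retnlg was the larger. Camp and S100a8, measured in the same way, went from 175 to 18200.1 CPM and from 139 to 13352 CPM (log2 ratios 6.70 and 6.59).

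Among the metalloproteinases, Mmp9, the gelatinase B, had 33 UMIs under vehicle and 635 after retinoic acid, or 0.333 CPM (0.229 to 0.468) against 5.77 (5.33 to 6.24). Its log2 ratio was 4.09 (3.61 to 4.67). Mmp8 had 20 and 160 UMIs, or 0.202 CPM (0.123 to 0.312) against 1.45 (1.24 to 1.70), with a log2 ratio of 2.82 (2.17 to 3.60). Mmp25 was the rarest of the 6 in both libraries. It had 10 and 45 UMIs, or 0.101 CPM (0.0484 to 0.186) against 0.409 (0.298 to 0.547), with a log2 ratio of 1.96 (1.01 to 3.17). The intervals of Mmp8 and Mmp25 overlapped, so their ratios could not be ordered at this depth.

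Padi4 was the only one of the 6 above 10 CPM in the vehicle library. It gave 1767 UMIs under vehicle and 7093 after retinoic acid, or 17.8 CPM (17.0 to 18.7) against 64.4 (62.9 to 65.9). Its log2 ratio of 1.85 (1.78 to 1.93) was a fold of 3.61, and its interval lay below those of Retnlg, Mmp9, Mmp8 and Retnla. These intervals leave out the spread over cells. Without cells under 5000 UMIs, Padi4 was at 1.84 and Retnla at 1.95. The 6 ratios spanned 1.85 to 6.16, with a deiminase at the lower end and a resistin-like gene at the upper.

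**Figure D1:**
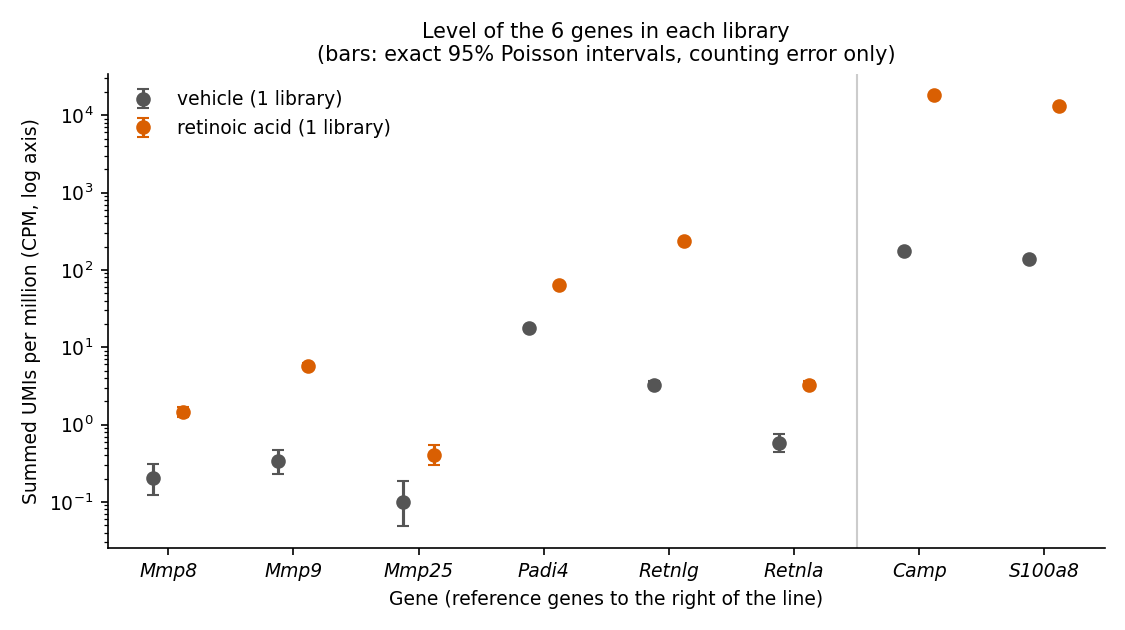
Summed level of each gene in the vehicle and retinoic acid libraries, in CPM on a log axis, with the 95% counting interval as the bar and 1 library per group. All 6 genes sit higher in the retinoic acid library, from Mmp25 (0.101 to 0.409 CPM) to Retnlg (3.28 to 234 CPM), beside Camp and S100a8.

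The number of cells with a UMI was compared after thinning each cell to 5000 UMIs, which left 5282 vehicle and 6659 retinoic acid cells and set aside 194 and 481 shallower ones. Padi4 was found in 9.11% of vehicle cells (481; interval 8.34 to 9.91) and 27.8% of retinoic acid cells (1854; 26.8 to 28.9). Retnlg was found in 17 vehicle cells (0.322%) and 1265 retinoic acid cells (19.0%; 18.1 to 19.96). The other 4 genes stayed rare even after retinoic acid. Mmp9 was in 75 cells (1.13%; 0.887 to 1.41) against 4 under vehicle, and Mmp8 in 13 (0.195%) against 2. Mmp25 was in 16 cells (0.240%) against 2, and Retnla in 30 (0.451%) against 7. Camp, by contrast, had a UMI in 98.5% and S100a8 in 97.2% of the retinoic acid cells. In the retinoic acid library each of the 6 genes was thus found in fewer cells than either reference gene. Under vehicle this did not hold for Padi4 (9.11%), which was in more thinned cells than Camp (3.65%) and in fewer than S100a8 (10.8%).

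Without thinning, the shares in the retinoic acid library were 54.5% for Padi4, 30.7% for Retnlg, 2.11% for Mmp9, 0.826% for Retnla, 0.560% for Mmp25 and 0.420% for Mmp8. Under vehicle the unthinned shares were 24.1% for Padi4 (1320 cells), 1.06% for Retnlg (58) and at most 10 cells for each of the others. The UMIs were spread very differently over these cells. At least 50% of the Padi4 UMIs after retinoic acid needed 1078 cells, with a maximum of 17 UMIs in a cell. The same share of Retnlg UMIs was held by 154 cells, and the richest cell had 272. For Mmp9 it was 33 cells, for Retnla 8 and for Mmp8 7. Mmp25 was a gene of single molecules: 36 of its 40 positive cells had 1 UMI.

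Free RNA in droplets gives UMIs to cells that do not express a gene, so shares were also taken in cells with mast cell or eosinophil genes. In 1904 vehicle cells with at least 3 UMIs of Cpa3, a mast cell protease (median depth 15441 UMIs), Retnlg was in 0.105%, Mmp9 and Retnla were in none, which allows a share of up to 0.158%, and Mmp8 and Mmp25 were in 1 cell each. Padi4 was in 8.61% of these cells, close to its 9.11% in all thinned vehicle cells (median depth 17016.5), and in 25 of 162 vehicle cells with eosinophil granule genes (15.4%, median depth 10995). Neither set is known to lack Padi4, so no background level could be set for it. The Cpa3 cells were 36.0% of the thinned vehicle cells, and Retnlg, Mmp9 and Retnla were low throughout that library. Shares in the Cpa3 cells therefore set no free RNA level for the retinoic acid library. After retinoic acid only 17 cells had at least 3 UMIs of eosinophil granule genes (median depth 9691). In these cells Padi4 was in 2 and Retnlg in 0, which allows a share of up to 17.6%, while Camp was in 82.4% and S100a8 in 70.6%. Under vehicle, Retnla and Mmp8 UMIs were gathered in few cells, with up to 22 UMIs of Retnla and 10 of Mmp8 in a cell. All 10 vehicle cells with Mmp25 had 1 UMI, at which level expression and free RNA cannot be told apart.

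The retinoic acid cells were next placed in classes by their Camp UMIs per 5000. In classes of 0 (100 cells), 1 to 2 (302), 3 to 9 (828), 10 to 29 (1435), 30 to 99 (1608) and 100 or more (2386), Retnlg was at 2.75, 4.87, 3.95, 11.7, 71.0 and 612 CPM. The intervals of the 3 lowest classes overlapped, and the 3 highest were separate from one another and from those below. Retnlg was found in 2 of 100 cells, 1.99% and 2.05% of cells in the 3 lowest classes and in 4.46%, 10.8% and 42.0% in the highest. A share near 2% in cells nearly free of Camp cannot be told apart from free RNA. The highest class held 89.0% of the Retnlg UMIs of the thinned cells, with 28.9% of all UMIs and 35.8% of cells.

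Padi4 was higher in each higher Camp class, in smaller steps, from 24.8 CPM through 29.6, 33.7, 43.7 and 53.5 to 112. Its share of positive cells went from 14.0% to 42.0%, and the highest class held 50.9% of its UMIs. The median depth was 17356.5 UMIs in the lowest class and 12057.5 in the highest, so shares at equal depth and CPM are the measures to compare. For the rare genes the highest Camp class held 76.3% of the Mmp9, 71.4% of the Mmp8, 76.3% of the Mmp25 and 78.4% of the Retnla UMIs. These shares were close to the 77.6% of Camp itself, and below that of Retnlg. A single cell with 19.8 Camp UMIs per 5000 held 13 of the 70 Mmp8 UMIs in the thinned cells.

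By S100a8 the rare genes were more narrowly placed. The class of 100 or more S100a8 UMIs per 5000 (1379 cells, 20.7% of the thinned cells and 15.3% of their UMIs) held 97.8% of the Retnla UMIs, 93.6% of the Mmp9, 89.7% of the Retnlg, 78.9% of the Mmp25 and 77.1% of the Mmp8 UMIs. Of Padi4 it held 34.5%. Of the 70 Mmp8 UMIs in the thinned cells, 13 were in a single cell outside this class, with 48.2 S100a8 UMIs per 5000. Mmp9 was at 0.469 CPM (0.287 to 0.725) in the class of 30 to 99 and at 20.1 (18.0 to 22.4) in the class above. By its unthinned rate, the cell with 13 Mmp8 UMIs falls in the class of 30 to 99. It also held 17 Mmp9 UMIs, a spread that the counting interval leaves out. Retnla went from 0.0235 CPM, which is 1 UMI in 2523 cells, to 13.6 (11.9 to 15.5). Retnlg went from 42.7 to 1160.4 CPM and was in 59.8% of the cells of the highest class. Padi4 changed least between these classes, from 59.7 to 143 CPM, with positive shares of 26.2% and 49.9%.

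**Figure D2:**
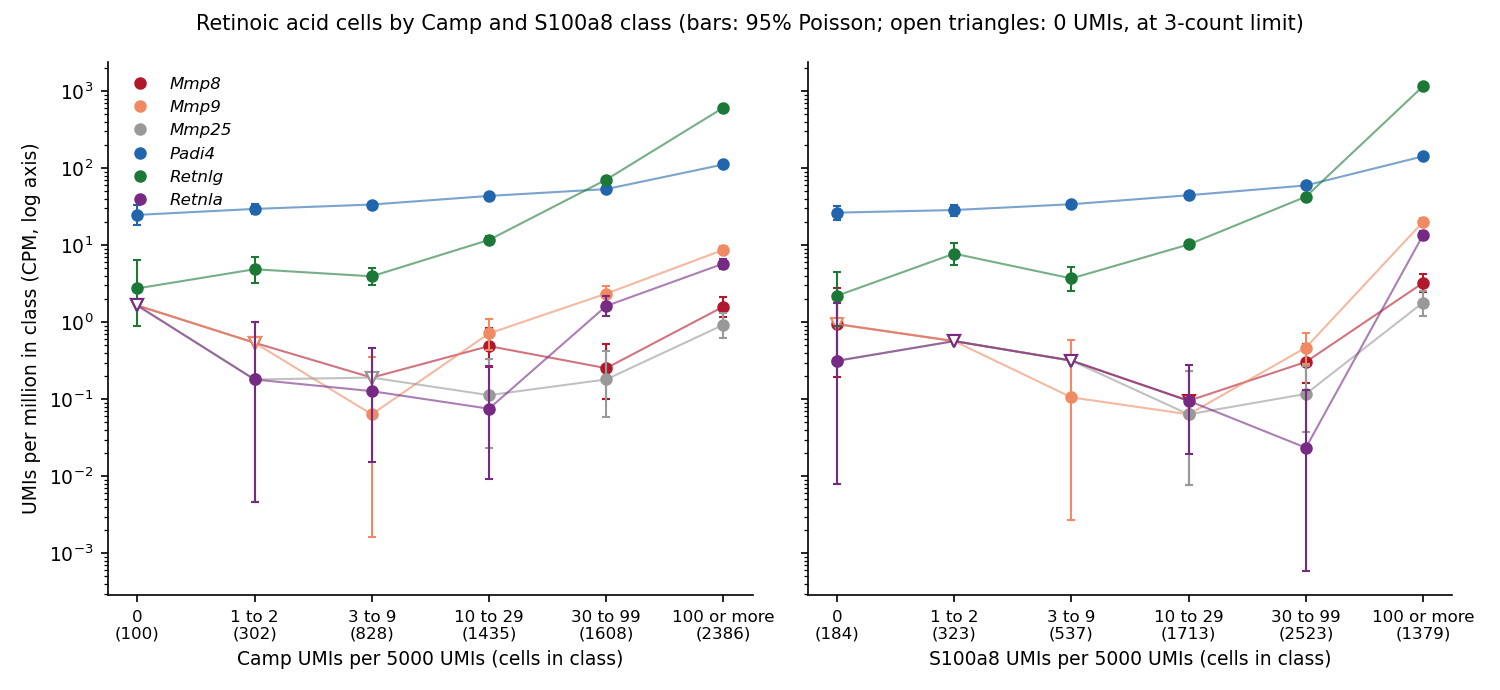
Level of each gene in CPM (log axis) in the retinoic acid cells by class of Camp or S100a8 UMIs per 5000 (cells in brackets), with 95% counting intervals and open triangles at the limit of 3 counts where there were 0. Retnlg goes from 2.75 to 612 CPM over the Camp classes, Padi4 from 24.8 to 112, and Mmp9 and Retnla appear mainly in the highest S100a8 class.

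The limits of these classes cut a continuous range. In the retinoic acid library 258 cells lay within 10% of the limit of 100 for Camp and 241 within 10% of that for S100a8. The median cell of that library had 49.7 Camp and 37.0 S100a8 UMIs per 5000. A cell drawn at random from the UMIs of each gene sat higher. Weighted by UMIs, the median S100a8 rate was 558 per 5000 for Mmp9, 511 for Mmp8, 449.6 for Retnla, 442 for Retnlg, 233 for Mmp25 and 56.1 for Padi4. By Camp the order was another: 288 for Retnlg, 208 for Mmp25, 199.7 for Mmp9, 123 for Retnla, 108 for Padi4 and 106 for Mmp8. Both orders depended on the weighting. With each positive cell counted once, the median Camp rate was 239.7 for Mmp9, 213 for Mmp25, 196 for Retnlg, 179.7 for Retnla, 111 for Mmp8 and 79.2 for Padi4. The median S100a8 rate was then 521 for Mmp9, 512 for Mmp8, 464 for Retnla, 299 for Mmp25, 113.5 for Retnlg and 45.9 for Padi4. Retnlg was thus above Mmp25 by UMIs and below it by positive cells.

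**Figure D3:**
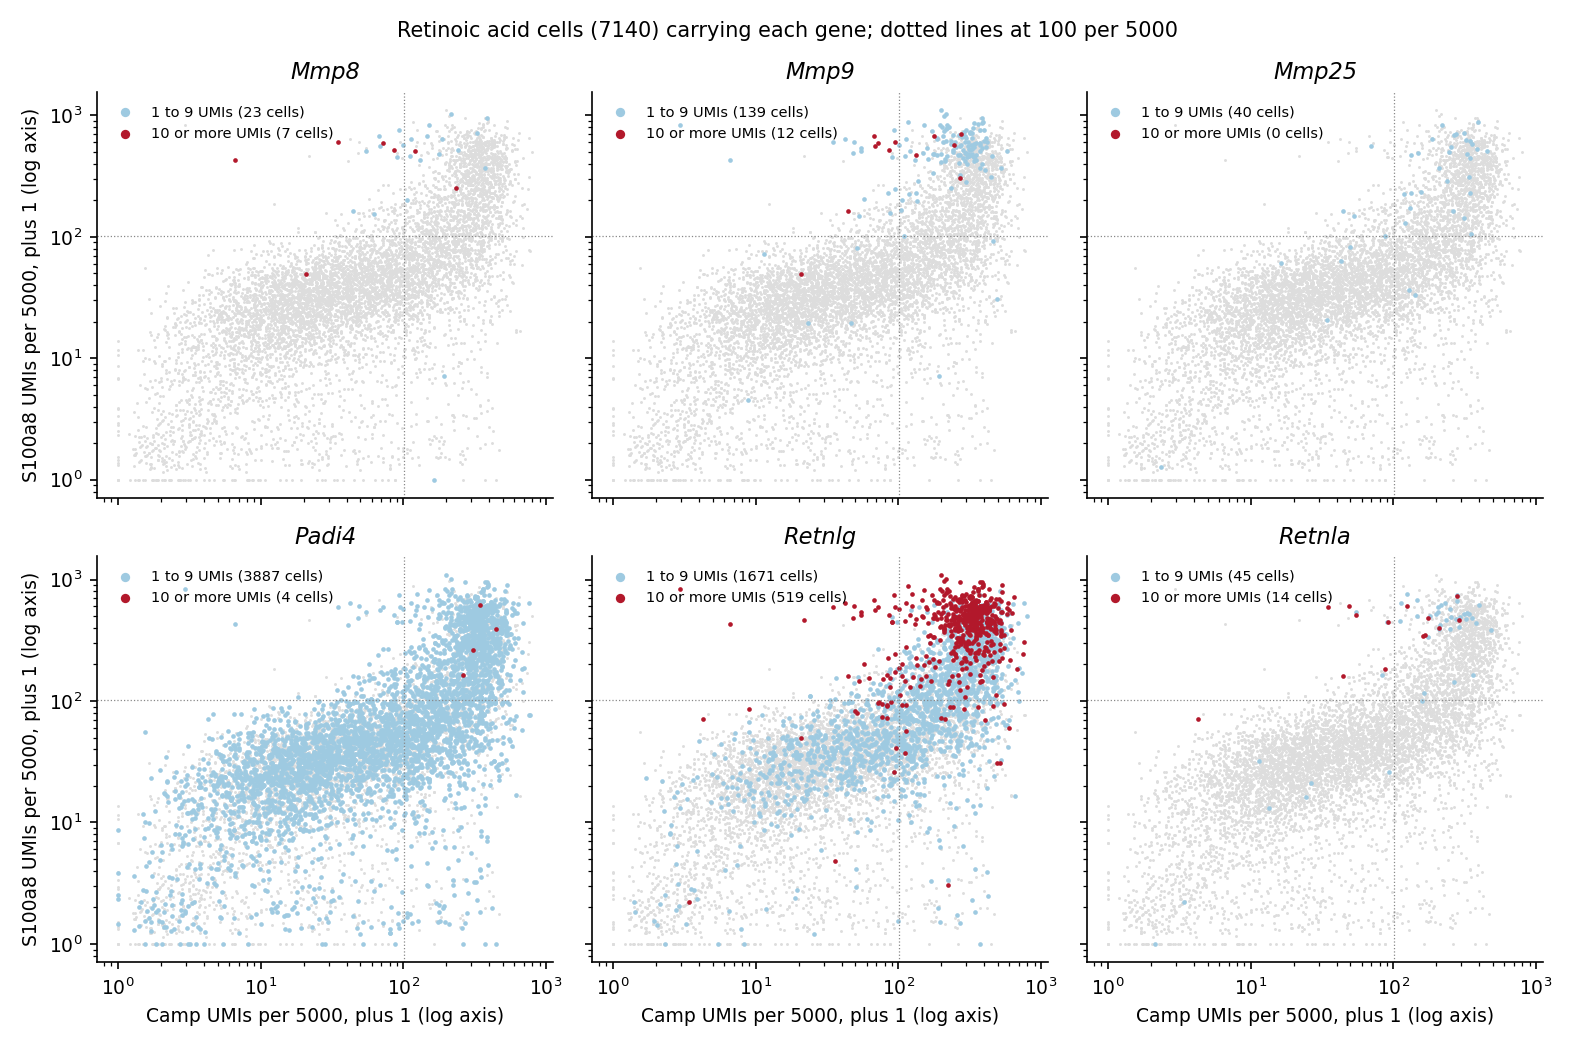
Camp and S100a8 UMIs per 5000 in each of the 7140 kept retinoic acid cells (log axes, 1 added, dotted lines at 100), in 1 panel per gene with cells of 1 to 9 UMIs in light blue, 10 or more in red and none in grey. Cells with Mmp8, Mmp9 or Retnla gather at high S100a8 (27 of 30, 142 of 151 and 50 of 59 with 100 or more), while Padi4 cells cover the whole range (1100 of 3891).

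Setting both reference genes at once separated the 2 axes. Cells with Camp at 100 or more but S100a8 below it (1118 cells) had Retnlg at 64.1 CPM and Padi4 at 76.3, with 1 UMI of Mmp9 and 0 of Retnla. Cells with S100a8 at 100 or more and Camp below it (111) had Retnlg at 665 CPM, Mmp9 at 34.8 and Retnla at 24.9. That Retnla value came from 45 UMIs, with 5 positive cells after thinning. By its unthinned rates (86.4 Camp and 184 S100a8 per 5000), a cell with 30 Retnla UMIs falls in this group. Where both were at 100 or more (1268 cells), Retnlg was at 1221, Padi4 at 151, Mmp9 at 18.3, Retnla at 12.2 and Mmp8 at 3.17 CPM. Cells below 100 for both (4162) had Retnlg at 15.5, Padi4 at 43.0 and Mmp9 at 0.292. That Mmp9 value came from 22 UMIs, and a cell with 17 Mmp9 UMIs falls in this group by its unthinned rates. High Camp without high S100a8 was thus nearly free of Mmp9 and Retnla.

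The same was seen in cells with at least 100 UMIs of Camp and S100a8 together per 5000, split by the part of that sum that was S100a8. In parts under 0.25 (853 cells), 0.25 to 0.5 (1442), 0.5 to 0.75 (807) and 0.75 or more (63), Mmp9 was at 0, 1.22, 20.3 and 126 CPM. Retnla was at 0, 0.0937, 15.8 and 74.9 CPM, and Retnlg at 53.9, 257, 1254 and 2195. Mmp8 went from 0.249 and 0.187 to 2.39 and 31.7. Padi4 differed less, at 76.8, 90.4, 130.4 and 117 CPM. Mmp25 went from 0.249 to 3.81, but it had 38 UMIs in all thinned cells, so both ends rest on few UMIs. The log2 ratio of Padi4 between the outer parts was 0.61 (interval 0.28 to 0.91), and 1.11 with a minimum of 200 UMIs. With a minimum of 50 UMIs in place of 100, Padi4 in the highest part stood at a log2 ratio of -0.33 to the lowest, so its direction depended on that minimum, and the ratio of Retnlg was 3.19 (5.35 at 100).

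**Figure D4:**
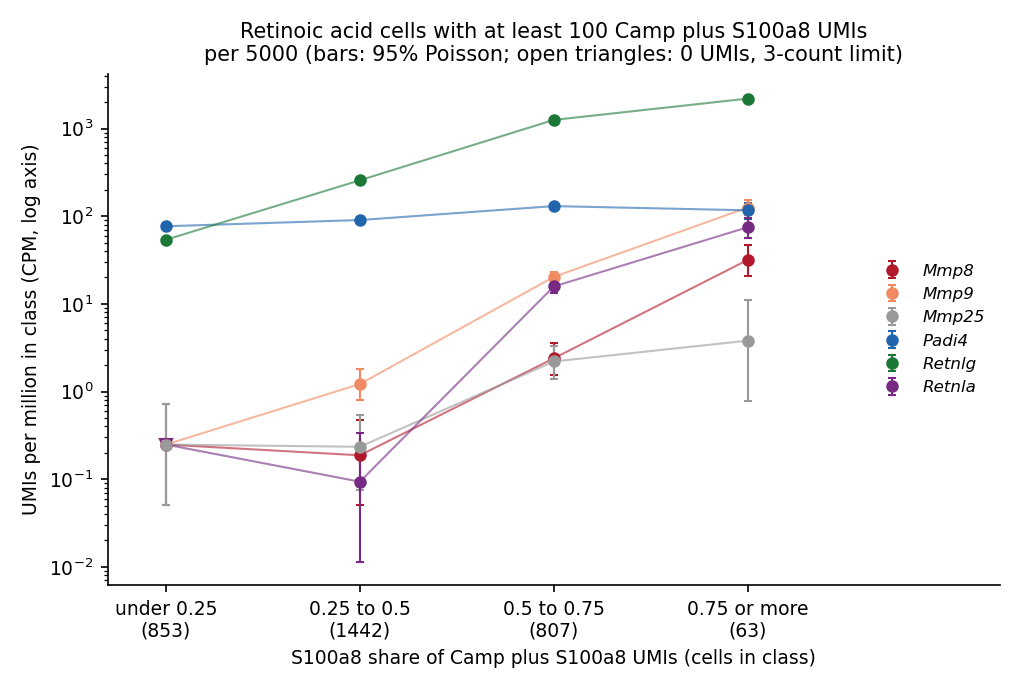
Level of each gene in CPM (log axis) in retinoic acid cells with at least 100 UMIs of Camp and S100a8 per 5000, by the part of that sum that is S100a8, with 95% counting intervals and open triangles at the limit of 3 counts where there were 0 (points of the rare genes overlap in the lowest part). Mmp9 and Retnla go from 0 to 126 and 74.9 CPM, and Padi4 stays between 76.8 and 130.4.

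Thinned cells leave out the shallowest ones, and these held much of the rare genes. The 481 retinoic acid cells with under 5000 UMIs had 1.38% of the UMIs of the library, yet 56.2% of the Mmp8, 43.6% of the Mmp9, 36.2% of the Retnla and 16.4% of the Retnlg UMIs. Their share of Camp was 2.67%, of S100a8 4.33% and of Padi4 3.03%. In all kept cells, by S100a8 rate and with no thinning, the 665 cells with 300 or more per 5000 had Retnlg at 3445 CPM in 89.9% of cells and Mmp9 at 103 CPM in 19.1%. Retnla was at 51.4 CPM and Mmp8 at 23.6 there, and Padi4 at 229 in 76.5% of cells. Below 10 S100a8 UMIs per 5000, Retnlg was at 9.84 and Padi4 at 31.7 CPM. Mitochondrial RNA was lower in cells with Mmp8 (median 0.542% of UMIs) and Mmp9 (0.838%) than in the library (1.23%). In cells with Mmp25 (1.09%) and Retnla (1.19%) it was nearer to that of the library. Cells with at most 0.1% mitochondrial UMIs made up 6.86% of the retinoic acid and 2.63% of the vehicle library, and without them the log2 ratio was 2.57 for Mmp8 and 3.94 for Mmp9.

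Within those 665 cells the level of Mmp9 and Mmp8 still differed by depth. From 2000 to 5000 UMIs (119 cells), from 5000 to 10000 (369) and from 10000 to 20000 (166), Mmp9 was at 576, 97.6 and 9.66 CPM. Mmp8 was at 188, 13.5 and 0 CPM, Retnlg at 7636, 4082 and 1709, and Retnla at 213, 55.0 and 15.0. Padi4 was at 273, 259 and 178 CPM, and S100a8 itself at 113364, 96280 and 80610. Shallower cells of this S100a8 class had more of the late genes per UMI, and also more S100a8. The part of depth in these levels was not tested. Of the 276 retinoic acid barcodes removed by the filter, the UMIs of Retnlg numbered 102 and those of Mmp9 4.

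**Figure D5:**
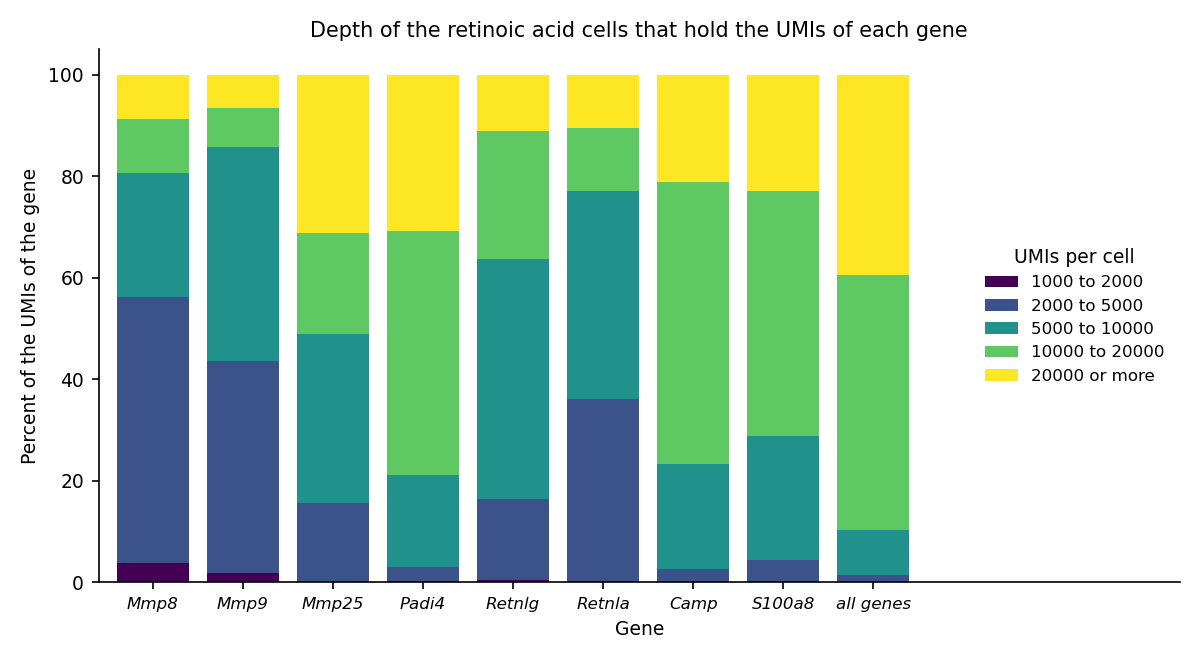
Stacked bars of the percent of each gene's UMIs held by retinoic acid cells of 5 depth classes (colours, UMIs per cell), with all genes together at the right as the reference. The 2 lowest classes, under 5000 UMIs, hold 56.2% of Mmp8, 43.6% of Mmp9 and 36.2% of Retnla against 1.38% of all UMIs, and Padi4 (3.03%) is the lowest of the 6.

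The genes were also found together. After retinoic acid, 27 of the 30 cells with Mmp8 also had Mmp9 (90.0%, against 1.74% of cells without Mmp8), and 29 had Retnlg. Of the 151 cells with Mmp9, 145 had Retnlg and 115 had Padi4. Mmp25 cells were less tied to Mmp9: 33 of 40 had Retnlg, 32 Padi4 and 15 Mmp9. Among 1379 thinned cells with 100 or more S100a8 UMIs, 72 of 73 with Mmp9 had Retnlg, against 57.6% of the 1306 without it. Retnlg was found in 38.7% of the cells with Padi4 and in 21.1% of those without. These are counts over cells of 1 library, which share their free RNA, and no test was made of them.

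Retnlg at 10 or more UMIs marked 519 retinoic acid cells, which held 85.9% of all its UMIs at a median depth of 7891. Of these, 485 had S100a8 and 473 had Camp at 100 or more per 5000, and 137 held Mmp9, 417 Padi4, 46 Retnla and 28 Mmp8. Camp was below 30 in 7 of them. A cell of 3065 UMIs carried 215 Retnlg and 25 Retnla at 3.26 Camp and 70.1 S100a8 UMIs per 5000. Another of 26536 UMIs held 13 Mmp8, 17 Mmp9 and 86 Retnlg at 19.8 Camp and 48.2 S100a8. High levels of these genes were thus also found, in single cells, away from the main body of Camp-rich cells.

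Retnla, the macrophage-associated relative, was mostly found with Retnlg after retinoic acid: 52 of 59 cells with Retnla had Retnlg, and 50 had Padi4. Of its 362 UMIs, 302 were in 21 cells with 5 or more. In the vehicle library the pattern was another one. There, 3 cells held 47 of the 58 UMIs, with 22, 15 and 10 in a cell, all without Retnlg, and 2 of 10 cells with Retnla had Retnlg. The 10 macrophage markers summed to 73.9 CPM under vehicle and 9.36 CPM after retinoic acid, a difference set by Adgre1 (73.7 against 5.15 CPM). Of the 5 with at least 10 counts the other 4 were higher after retinoic acid, 3 of them at least 2-fold. Over the 14561 genes, 43.2% were higher and 5.72% at least 2-fold higher, and most of these markers had few counts. Chil3, a chitinase-like protein that neutrophil precursors also make, had 1 count under vehicle and 428 after retinoic acid, C1qc 3 and 11, Mrc1 4 and 10 and C1qa 5 and 8. C1qb had 4 and 4 counts, and Vsig4 and Marco were at 0 in both libraries. The part of macrophage RNA in the Retnla values was not tested.

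Under vehicle the late genes came from very few cells. Of the 325 Retnlg UMIs, 237 were in 4 cells, 3 of which also held Mmp9 and 3 Mmp8. A single cell of 10650 UMIs had 138 Retnlg, 8 Mmp9 and 7 Mmp8, with 141 Camp and 346 S100a8 UMIs per 5000. A second one, of 3465 UMIs, had 65 Retnlg, 10 Mmp8 and 7 Mmp9 at 303 S100a8 and 0 Camp. In all, 5 vehicle cells had 300 or more S100a8 UMIs per 5000, and these held 231 Retnlg, 19 Mmp9 and 18 of the 20 Mmp8 UMIs. With the richest cell of each library left out, the log2 ratio went from 6.16 to 6.94 for Retnlg and from 2.82 to 3.64 for Mmp8, a change in the ratio of more than 1.5 times. Padi4 and Mmp25 were not gathered in this way. In the thinned vehicle cells, 92.4% of the Padi4 UMIs and all 9 of Mmp25 were in cells with 0 Camp. Those cells held 96.8% of all UMIs, so neither gene had more than its share there. Padi4 was at 16.9 CPM in those cells and at 133 in the 27 vehicle cells with 100 or more.

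Maturing neutrophil markers were higher after retinoic acid as well, except Cxcr2, which was at least 2-fold lower (1645 UMIs under vehicle, 751 after retinoic acid). In the thinned vehicle cells, 96.1% of the Cxcr2 UMIs were in cells with 0 Camp, which held 96.8% of all UMIs. After retinoic acid, Cxcr2 was at 26.0 CPM where Camp and S100a8 were both at 100 or more. Where both were below 100 it was at 2.33 CPM. The list of 11 (with Mmp8, Mmp9 and Retnlg among them) summed to 1640.1 CPM under vehicle and 61792 after retinoic acid, and 7 of its 8 other members were at least 2-fold higher, against 5.72% of the 14561 genes. Markers of other cell types were lower in sum: eosinophil 126 against 34.8 CPM, mast or basophil 739 against 66.4, and monocyte 7.21 against 4.49. The sums for erythroid, B cell, T cell and megakaryocyte genes were at most 4.2 CPM after retinoic acid or under vehicle, except megakaryocyte genes under vehicle (29.1). In summed libraries, more cells of a mature type and more RNA per cell cannot be told apart.

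For Padi4 and Retnlg, found in over 5% of retinoic acid cells, the genes of most like pattern were ranked among 5131 by Pearson's r of log-normalised counts over 7140 cells. For Retnlg these were Ly6g (0.77), Ifitm6 (0.75), Lcn2 (0.68), Ceacam10 (0.67) and Ltf (0.67). Ly6g is part of the Gr1 antigen of neutrophils, and Lcn2 and Ltf are secondary granule proteins. S100a8 was at rank 12 (0.56) and Camp at rank 42 (0.44). For Padi4 the same names led with lower values: Lcn2 (0.47), Ly6g (0.47), Ceacam10 (0.44), Ifitm6 (0.43) and Retnlg (0.43), with S100a8 at 0.39 and Camp at 0.37. These cells share 1 library and differ in depth, which enters every r.

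Cells scored as G1 by their cycle genes had more of the late genes. Retnlg was at 731 CPM in 1859 G1 cells, 89.4 in 1691 S cells and 55.6 in 3109 G2/M cells, and Mmp9 at 13.7, 0.769 and 0.673. Padi4 was at 102, 65.3 and 48.8 CPM. Within the cells of 100 or more S100a8 UMIs the order was kept, with Retnlg at 2336, 523 and 326 and Padi4 at 204, 128 and 89.0. The median depth differed too, at 11048, 15005 and 18515 UMIs, and free RNA enters such scores, so no cycling state is read from them.

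The metalloproteinase family did not move as a whole. Of the 28 matrix metalloproteinase and inhibitor genes listed, 27 were in the files and 11 had at least 10 counts. Of these 11, 5 were higher and 6 lower after retinoic acid, with a median log2 ratio of -0.13. Over all 14561 genes 43.2% were higher, and the median was -0.08. At least 2-fold, 4 of the 11 were higher and 4 lower, against 5.72% and 15.0% of all genes. Without Mmp8, Mmp9 and Mmp25, 2 of 8 were higher, 1 of them at least 2-fold, and 4 were at least 2-fold lower. The inhibitor Timp2 was the most abundant (149.7 against 137 CPM, log2 ratio -0.13), and Mmp15, a membrane-type enzyme, was lower (0.464 against 0.0545 CPM, log2 ratio -2.99). Of the other deiminases, Padi2 went from 2.70 to 4.0 CPM, Padi3 from 0.555 to 1.12 and Padi1 from 1.14 to 0.154 (log2 ratios 0.56, 1.00 and -2.85). In the resistin family both other members had ratios above 0. Retnlb had 5 and 32 counts (2.41, interval 1.16 to 4.24) and Retn 17 and 26 (0.45, interval -0.48 to 1.44). The interval of Retn included 0.

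Of 20 genes listed for gelatinase granules and secretory vesicles, 16 had at least 10 counts and 13 of them were higher. Without the metalloproteinases described here, 10 of 13 were higher and 8 at least 2-fold, with a median log2 ratio of 1.21. Over the 14561 genes, 43.2% were higher and 5.72% at least 2-fold, with a median of -0.08. With all its genes the list had 5 members at 20 CPM and a median of 0.68 there. Hp, haptoglobin, went from 174 to 1086 CPM, Lyz2, lysozyme, from 168 to 387, and Itgb2, the beta chain of the Mac-1 integrin, from 45.7 to 73.3. Adam8, a membrane protease of neutrophils, went the other way, from 41.5 to 8.55. Of 24 late neutrophil genes with at least 10 counts, 16 were higher and 8 lower (median 0.55), 9 and 6 of them at least 2-fold. The 2-fold shares over the 14561 genes were 5.72% higher and 15.0% lower. At 20 CPM 8 of 15 were higher, against 50.5% of the 5548 genes, with 4 at least 2-fold higher and 5 lower. The 2-fold shares over the 5548 genes were 3.03% and 5.05%. The summed level of the list went down, from 13239.8 to 7319 CPM, led by the interferon-induced Ifitm1 (7388 against 1694 CPM). Ly6g went from 35.6 to 281 CPM, Cd177, a neutrophil surface glycoprotein, from 13.1 to 311, and Lrg1, a granule glycoprotein, from 10.2 to 286. Hdc, the histamine-forming enzyme, went from 67.0 to 1.71 CPM. The late markers were thus not all higher in these cells.

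The genes of extracellular trap formation, to which Padi4 belongs, were higher for 10 of its 12 other members, 5 of them at least 2-fold, with a median of 0.76. Over the 14561 genes these shares were 43.2% and 5.72%. The largest were the proteases Elane (log2 ratio 6.93) and Prtn3 (3.52) and the oxidase subunit Ncf1 (3.56), and the pore-forming Gsdmd was at 0.98. Mpo was lower by far (-9.27), and Ctsg nearly level (-0.11). The 4 C/EBP factor genes were mixed: Cebpd was at 1.09 and Cebpb at 0.68, while Cebpa and Cebpe were at -0.23 and -0.16. Scaling by TMM factors, which discount the few most abundant genes, raised each ratio by 0.08 and changed the direction of none of the 6 genes.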

How the data were processed

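Single-cell RNA sequencing of 2 libraries was analysed. Values were UMI counts per gene and cell, deposited as raw matrices, and the authors made them with Cell Ranger 4.0.0 on mm10 (GRCm38.p4), per the submitters' processing notes. Samples were grouped by the labelled treatment, 1 library each, so no test was run.

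Barcodes with at least 1000 UMIs, at least 500 genes and at most 10% mitochondrial UMIs were kept, which removed 310 and 276. CPM are summed counts of the kept cells, scaled to a total of 1e+06, with exact Poisson intervals, and shares have exact binomial (Clopper-Pearson) intervals. The ratio interval is the exact binomial one. Intervals and the floor of 3 counts cover counting error only. Classes were set on cells thinned to 5000 UMIs, while CPM in a class used all UMIs of its cells. Scrublet, in scanpy 1.11.5, called 1 and 7 cells, too few to have worked, so no doublet was removed and the 5% of highest scores were left out as an alternative. Scripts used Python 3.11.15, scipy 1.17.1, numpy 2.4.6 and edgeR 4.0.16 (TMM factors only), and the interval and thinning steps were tested on simulated data.

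Named genes were the 6 genes, Camp, S100a8, list members that reached 20 CPM in a library (at least 10 counts in the metalloproteinase, deiminase and resistin families), and the 5 most similar genes of those in at least 5% of retinoic acid cells. C1qa, C1qb, C1qc, Mrc1, Chil3, Vsig4, Marco and Cxcr2, outside that rule, were chosen after their values were seen. The genes and lists were chosen with earlier results of these data known. Gene positions are from GENCODE on GRCm38 and promoters from RefSeq on GRCm38.p6. Leaving out shallow cells, leaving out the richest cell, the classes of all kept cells and the depth classes were added after seeing the data.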

Additional observations from a re-analysis of the deposited data

How the results depend on the processing

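All 60 recomputed log2 ratios of the 6 genes stayed above 0, and 50 of them were inside the counting interval of the reported value. Outside it were Padi4 at 1.93 with TMM factors, 1.95 with equal weight for every cell and 1.95 with the abundant granule genes out of the total, Retnlg at 5.67 and Retnla at 3.02 with equal weight, Retnlg at 6.42 and Retnla at 1.95 without cells under 5000 UMIs, and Mmp8 at 3.64, Retnlg at 6.94 and Retnla at 3.01 without the richest cell of each library. The number of genes at least 2-fold different (448 at 20 CPM) was 923 at 5 CPM, 133 at 100 CPM and 6081 with no filter. Shares of positive retinoic acid cells at 3000 and 8000 UMIs and unthinned were 18.6%, 36.3% and 54.5% for Padi4, 16.5%, 20.2% and 30.7% for Retnlg, and 1.49%, 0.434% and 2.11% for Mmp9. Mmp8 was at 0.0668% at 8000 UMIs and 0.420% unthinned, Mmp25 at 0.560% and Retnla at 0.826% unthinned. In all kept cells the Retnlg ratio of the highest to the lowest class was 5.11 by Camp (7.66 thinned) and 7.11 by S100a8 (8.94), where the lowest class is wider by construction. By the S100a8 part, Retnlg was at 3.19, 6.28 and 5.21 with a minimum of 50, a minimum of 200 and without the highest doublet scores (5.35 reported), and Padi4 at -0.33 and 1.11 with minimums of 50 and 200 (0.61 reported), and the cause was not tested. List medians at 20 CPM, where fewer genes are counted, were 1.85 for deiminases, 6.16 for resistins, 0.68 for gelatinase granules, 0.28 for late neutrophil genes and 0.76 for extracellular traps. With TMM factors they were -0.046 for metalloproteinases and 1.06 for extracellular traps. No paired analysis was possible because there was a single library per group. For the same reason none could be left out, and animals, litters and runs cannot be told apart from treatment. Depth limits Mmp8, Mmp25 and Retnla under vehicle, at 10 to 58 UMIs each.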
